A study of Homo sapiens with 15 samples.

Results

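Transcripts of 8 tetraspanin genes, CD9, CD82, TSPAN9, CD81, CD63, CD37, CD53 and CD151, were followed by RNA-seq in 15 libraries of Reh, a B-cell leukaemia line of human origin with the ETV6::RUNX1 fusion and no normal ETV6 left. These are 8 of the 33 genes listed here as the tetraspanin family and 8 of the 33367 genes in the table. CD9, CD82 and TSPAN9 were chosen by the size of their read-count changes between groups, which were among the largest in these libraries, so their values are given as a description without a test. The other 5 were tested. All 8 passed the filter on low counts in both experiments.

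The libraries fall into 5 groups of 3. In the first experiment, a doxycycline-inducible vector supplied ETV6 R399C with a V5 tag (ETV6_R399C), wild-type ETV6 with a V5 tag (ETV6_WT) or the fluorescent protein tagBFP, and all cells received 500 ng/ml doxycycline for 48 h. ETV6 is an ETS-family protein that represses transcription, and R399C changes a residue of the domain that binds DNA. In the second experiment, cells carried a stably integrated, inducible dCas9-KRAB, an inactive Cas9 fused to a repressor domain, with a guide against the promoter of ERG (sgERG) or a non-targeting guide (sgCtrl). Cells were sorted on the guide vector's fluorescent reporter and received 500 ng/ml doxycycline for 72 h. ERG is an ETS-family activator. The labels describe transduced populations of 1 line and do not say that replicates were separate cultures, so p-values measure only the spread between these libraries.

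Tetraspanins cross the membrane 4 times and gather integrins, immunoglobulin-superfamily proteins and proteases into tetraspanin-enriched microdomains. CD81 is found on most cell types, B cells among them, and CD37 and CD53 are tetraspanins of leukocytes. CD9 marks stages of B-cell development and is often found on B-lymphoblastic leukaemia cells.

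Totals ran from 22040338 to 52481351 estimated reads per library. ETV6 stood at 373 ± 14.7 CPM in ETV6_R399C, 486 ± 18.1 CPM in ETV6_WT and 5.86 ± 0.327 CPM in tagBFP libraries (SD, n = 3 each), where CPM is the count scaled to library size over named genes after TMM scaling. ERG stood at 105.1 ± 4.14 CPM in sgERG and 525 ± 6.35 CPM in sgCtrl libraries. Of 8 B-lineage markers 7 averaged at least 1 TPM (length-corrected transcript abundance) in every group, and VPREB1 was listed below 0.1 TPM. Their summed level was 4025 to 4083 TPM in ETV6_R399C, 4034 to 4055 TPM in ETV6_WT and 3054 to 3167 TPM in tagBFP libraries, and 3435 to 3539 TPM in sgERG and 3708 to 3837 TPM in sgCtrl libraries. The part of that shift in the tetraspanin values was not tested, and in bulk RNA fewer cells of a type cannot be told apart from less RNA per cell. Of markers of other cell types, CD3D, CD2, ELANE, PF4, HBB and EPCAM averaged below 0.1 TPM in every group. The sum of 5 myeloid markers, mostly CSF1R, was 15.9 to 18.5 TPM in ETV6_R399C, 21.3 to 25.4 TPM in ETV6_WT and 13.2 to 14.1 TPM in tagBFP libraries, and that of 5 T-cell and NK-cell markers, mostly NKG7, was 17 to 24.5, 13.4 to 15.6 and 11.7 to 12.5 TPM in the same groups. The sum of 5 stromal and epithelial markers, was 18.9 to 26.4 TPM in ETV6_R399C, 16.2 to 22 TPM in ETV6_WT and 15.2 to 15.6 TPM in tagBFP libraries, with KRT8 at 5.18 to 7.29, 2.4 to 5.98 and 1.82 to 2.19 TPM in the same groups. That sum, mostly COL1A1 in the second experiment, was 45.9 to 47.4 TPM in sgERG and 34.2 to 40.7 TPM in sgCtrl libraries. Their part in the tetraspanin values was not tested either. The library sgERG replicate 3 stood furthest from its group, since its chi-square over genes, divided by the degrees of freedom, was 12.9 and 14.7 against the other sgERG libraries, while those differed from each other by 6.94. Results of the ERG experiment are therefore also given without it for every member but CD151, and for the count of partners called. Differences of single partners are given with all libraries.

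Sequence upstream of the start sites is shown for CD9 and CD82, which were higher with both ETV6 forms, and for CD53, whose log2 differences from tagBFP were 0.07 and 0.04. With sgERG over sgCtrl, CD9, CD82 and CD53 had log2 differences of -1.02, -0.45 and -0.22. The RefSeq table lists 4 windows for CD9, 1 for CD82 and 2 for CD53, and the one whose start site lies nearest to the start of the gene's most abundant transcript is shown. These windows lie inside the GENCODE gene spans, which begin further upstream. Bases are from RefSeq on GRCh38.p14, plus strand, read from 250 bases before that start site and ended before any GENCODE exon of the gene that falls inside the window. Capitals mark GGAA or its reverse complement TTCC, the core read by ETS-family proteins. The stretches are chr12:6200150-6200315 for CD9, chr11:44565413-44565590 for CD82 and chr1:110872898-110873147 for CD53.
CD9: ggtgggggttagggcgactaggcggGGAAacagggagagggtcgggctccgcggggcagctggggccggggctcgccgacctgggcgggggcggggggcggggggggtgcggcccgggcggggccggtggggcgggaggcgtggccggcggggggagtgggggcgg
CD82: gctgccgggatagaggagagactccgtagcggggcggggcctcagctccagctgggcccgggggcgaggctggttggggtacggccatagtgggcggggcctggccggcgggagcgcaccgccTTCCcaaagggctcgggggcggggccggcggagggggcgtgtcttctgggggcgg
CD53: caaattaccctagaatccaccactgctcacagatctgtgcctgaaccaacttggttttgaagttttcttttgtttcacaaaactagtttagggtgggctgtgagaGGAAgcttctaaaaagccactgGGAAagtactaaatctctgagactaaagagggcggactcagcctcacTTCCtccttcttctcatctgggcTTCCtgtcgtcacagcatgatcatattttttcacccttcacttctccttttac
In full, the 250-base windows shown hold 2 such cores for CD9, 2 for CD82 and 4 for CD53. The other CD9 windows hold 4, 1 and 5 cores and the other CD53 window 5, so the counts of the 2 genes overlap. Of 35116 windows of that length in the RefSeq table, 92.7% hold GGAA on at least 1 strand, with a median of 3 cores per window. The longer ETS motif CCGGAAGT, on either strand, occurs in 3.42% of windows, and the repeat GGAAGGAA in 3.06%, each of which contains the GGAA core. Neither was found in the windows shown or in the one chosen the same way for CD63. TSPAN9, CD81, CD37 and CD151 are named only.

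CD9 (chromosome 12, 6199715 to 6238271, forward strand, hg38), a tetraspanin that binds integrins and takes part in cell adhesion, motility and membrane fusion, was higher with either ETV6 form and lower with the ERG guide. Its level was 38.1, 39.2 and 38.7 CPM in ETV6_R399C, 28.4, 26.8 and 26.2 CPM in ETV6_WT, and 5.32, 6.77 and 7.13 CPM in tagBFP libraries. The 3 groups did not overlap, with ETV6_R399C highest and tagBFP lowest. The ETV6_R399C level was 6.08-fold (log2 difference 2.60) and the ETV6_WT level 4.27-fold (2.09) that of tagBFP, and the ETV6_R399C level was 1.42-fold (0.51) that of ETV6_WT. Among 10351 genes of at least 5 CPM, these ranked 3rd, 8th and 197th from the highest log2 difference. With the CRISPR guides CD9 was at 29.8, 26.8 and 28.7 CPM in sgERG and 55.8, 58.9 and 58.7 CPM in sgCtrl libraries. Every sgERG library lay below every sgCtrl library, at 49.2% of the control mean level (log2 difference -1.02, and -1.03 without sgERG replicate 3).

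CD82 (chromosome 11, 44564427 to 44620363, forward strand), known as KAI1 and as a suppressor of metastasis in carcinoma, was also higher with either ETV6 form, with the 2 forms in the opposite order. It was at 107.3, 103.1 and 109.2 CPM in ETV6_R399C, 166, 168 and 173 CPM in ETV6_WT, and 26.3, 26 and 29.9 CPM in tagBFP libraries. No libraries of these groups overlapped, and ETV6_WT was highest. The ETV6_R399C level was 3.9-fold (log2 difference 1.97) and the ETV6_WT level 6.19-fold (2.63) that of tagBFP, which ranked 6th and 3rd from the highest. ETV6_R399C stood at 63% of the ETV6_WT level (log2 difference -0.67). With sgERG, CD82 was at 15.5, 16.3 and 19.9 CPM, against 24, 23.4 and 23.3 CPM with sgCtrl. The groups did not overlap, at 73.1% of the control (log2 difference -0.45), and the difference was -0.57 without sgERG replicate 3, the highest of its group. With all libraries the difference ranked 258th from the lowest among 10453 genes of at least 5 CPM.

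TSPAN9 (chromosome 12, 3077355 to 3286564, forward strand), a tetraspanin known from platelets and megakaryocytes, was lower with both ETV6 forms, more so with ETV6_WT, and with the ERG guide. It was at 44.8, 45.6 and 45.8 CPM in ETV6_R399C, 26.8, 25.1 and 27.5 CPM in ETV6_WT, and 57.1, 55 and 53.9 CPM in tagBFP libraries. These groups did not overlap, with tagBFP highest and ETV6_WT lowest. Against tagBFP the level was 82.1% in ETV6_R399C (log2 difference -0.29) and 47.8% in ETV6_WT (-1.07), and ETV6_R399C was 1.72-fold ETV6_WT (0.78). With an offset for transcript length the first of these differences was -0.18. Without the offset they ranked 1198th and 53rd from the lowest and 90th from the highest among 10351 genes of at least 5 CPM. In the ERG experiment TSPAN9 was at 30.4, 28.7 and 32.8 CPM in sgERG and 118, 124 and 123 CPM in sgCtrl libraries. All sgERG libraries lay below all sgCtrl libraries, at 25.2% of the control (log2 difference -1.99, and -2.04 without sgERG replicate 3), the 9th lowest log2 difference of 10453 genes of at least 5 CPM. TSPAN9 overlaps AC005912.1 on the other strand, and which strand was counted is not stated in the sources used here. The 6 megakaryocyte and platelet markers summed to 9.01 to 11.4 TPM in sgERG and 5.94 to 8.9 TPM in sgCtrl libraries, mainly ITGA2B, with PF4, PPBP and GP1BA below 0.1 TPM on average in both groups. Their part in the TSPAN9 values was not tested.

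**Figure D1:**
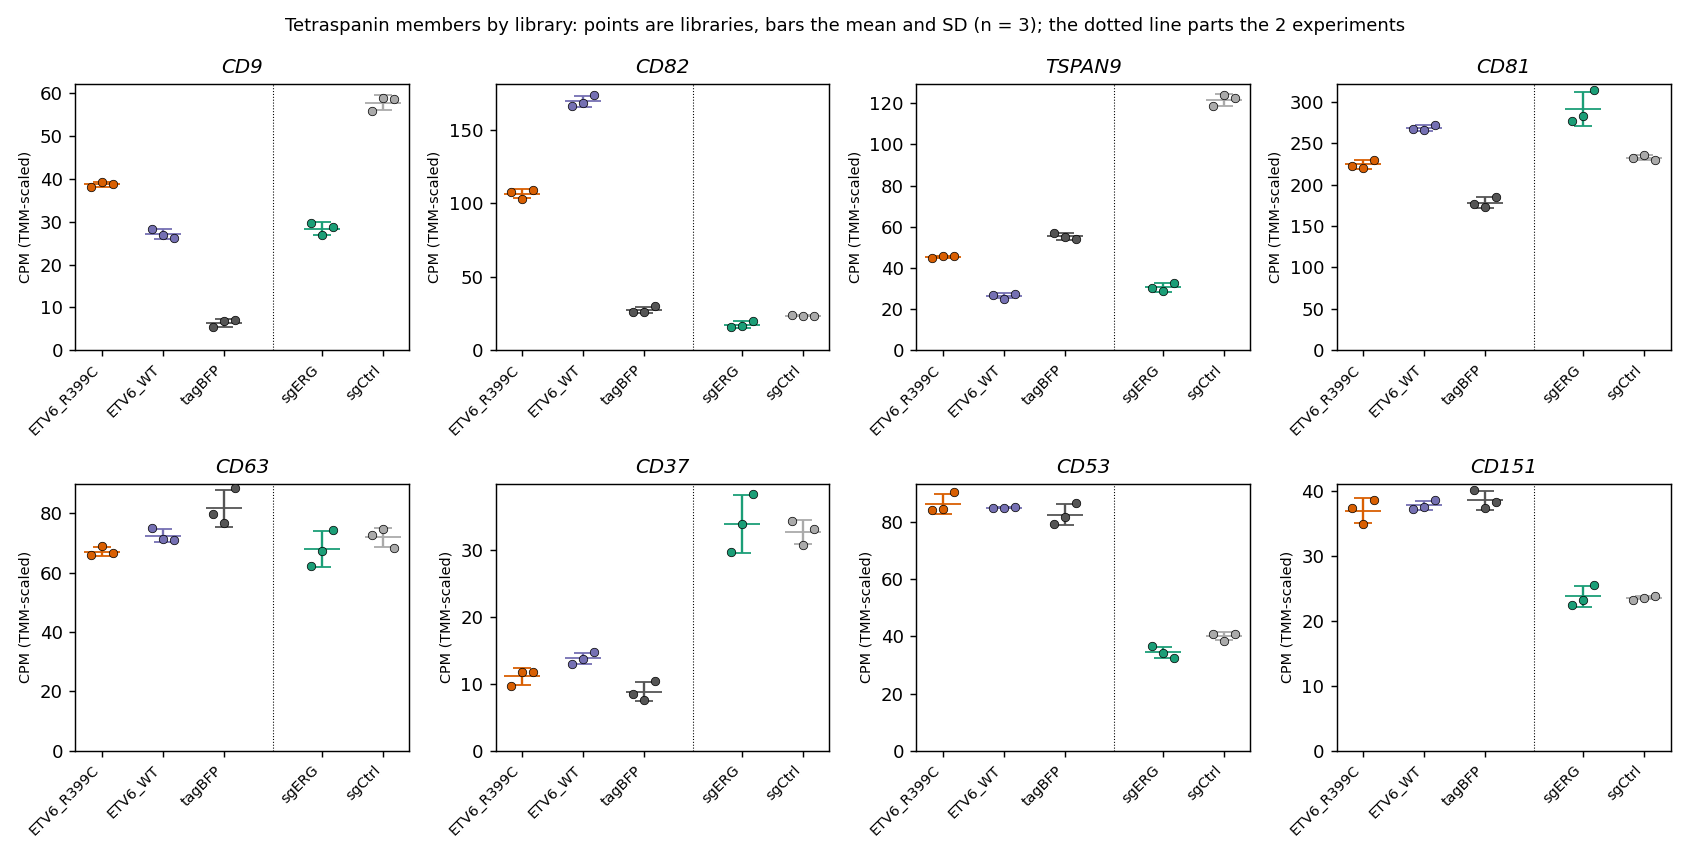
Level of each of the 8 members in every library (CPM, TMM-scaled, linear axes from 0). Points are libraries and bars the mean and SD of 3; CD9 and CD82 are lowest with tagBFP among the first 3 groups, and TSPAN9 is at 25.2% of sgCtrl with sgERG.

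The levels of CD9, CD82 and TSPAN9 thus lay in 3 different orders across the ETV6 groups. ETV6 transcript itself stood at 373 CPM in ETV6_R399C and 486 CPM in ETV6_WT libraries, and the part of that difference in the contrast between the 2 forms was not tested. The comparisons with tagBFP share the tagBFP libraries.

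CD81 (chromosome 11, 2376177 to 2397419, forward strand), a broadly expressed tetraspanin that is also a receptor for hepatitis C virus, rose with both ETV6 forms and with the ERG guide. It was at 223, 219.9 and 230.4 CPM in ETV6_R399C, 267, 266 and 272 CPM in ETV6_WT, and 176, 173 and 186 CPM in tagBFP libraries. No groups overlapped. By the quasi-likelihood test of edgeR, adjusted over all genes by Benjamini-Hochberg, the log2 difference was 0.33 ± 0.03 (SE, adjusted p = 8.2e-06) for ETV6_R399C over tagBFP and 0.59 ± 0.03 (edgeR adjusted p = 6.2e-08) for ETV6_WT over tagBFP. ETV6_R399C was 0.26 lower than ETV6_WT (log2 difference -0.26 ± 0.03 SE, edgeR adjusted p = 1.5e-04). In the second experiment CD81 was at 277, 283 and 315 CPM in sgERG and 232, 236 and 229 CPM in sgCtrl libraries, again without overlap. Its log2 difference was 0.33 ± 0.05 (SE, edgeR adjusted p = 0.00158), and 0.27 without sgERG replicate 3 (edgeR adjusted p = 1.8e-04).

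CD37 (chromosome 19, 49335171 to 49343335, forward strand), a tetraspanin of mature B cells, rose with ETV6_WT. It was at 9.62, 11.8 and 11.8 CPM in ETV6_R399C, 12.9, 13.7 and 14.7 CPM in ETV6_WT, and 8.46, 7.63 and 10.4 CPM in tagBFP libraries. ETV6_WT lay above both other groups, whereas ETV6_R399C and tagBFP overlapped. The log2 difference was 0.65 ± 0.12 (SE, edgeR adjusted p = 0.00107) for ETV6_WT over tagBFP. It was 0.33 ± 0.12 (edgeR adjusted p = 0.0425) for ETV6_R399C over tagBFP, a call that was lost with a transcript length offset (adjusted p = 0.17), in a fit of the 2 groups alone (0.0673), and without ETV6_R399C replicate 2 or 3 (0.134 and 0.132) or tagBFP replicate 1 or 2 (0.121 and 0.158). ETV6_R399C over ETV6_WT was -0.32 (edgeR adjusted p = 0.0742). With sgERG it was at 29.7, 33.8 and 38.3 CPM, overlapping sgCtrl at 34.3, 30.8 and 33.2 CPM (log2 difference 0.05 ± 0.09 SE, edgeR adjusted p = 0.754, and -0.05 without sgERG replicate 3). CD37 overlaps TEAD2 on the other strand.

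CD63 (chromosome 12, 55725323 to 55729707, reverse strand), a tetraspanin of late endosomes, lysosomes and exosomes, fell with both ETV6 forms. It was at 66, 68.8 and 66.5 CPM in ETV6_R399C, 74.9, 71.3 and 71.1 CPM in ETV6_WT, and 79.6, 76.6 and 88.5 CPM in tagBFP libraries. All libraries of either ETV6 form lay below those of tagBFP, with log2 differences of -0.28 ± 0.05 (SE, edgeR adjusted p = 9.0e-04) and -0.17 ± 0.05 (edgeR adjusted p = 0.0193). The call for ETV6_WT was lost with a transcript length offset (adjusted p = 0.12) and without ETV6_WT replicate 3 (0.0755). ETV6_R399C over ETV6_WT was -0.11 (edgeR adjusted p = 0.153), without overlap. In sgERG and sgCtrl the groups overlapped, at 62.2, 67.2 and 74.4 CPM in sgERG and 72.7, 74.6 and 68.4 CPM in sgCtrl libraries (log2 difference -0.08 ± 0.06 SE, edgeR adjusted p = 0.442, and -0.15 without sgERG replicate 3, adjusted p = 0.0697).

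CD53 (chromosome 1, 110871188 to 110899928, forward strand), found on leukocytes, fell slightly with the ERG guide. It was at 36.5, 34.2 and 32.6 CPM in sgERG and 41, 38.4 and 41 CPM in sgCtrl libraries, without overlap (log2 difference -0.22 ± 0.06 SE, edgeR adjusted p = 0.0325). This call was lost with a transcript length offset (adjusted p = 0.0655) and without sgERG replicate 2 (0.0869), sgERG replicate 3 (0.0501), sgCtrl replicate 1 (0.135) or sgCtrl replicate 3 (0.134). Its levels in the first experiment overlapped, at 84.3 to 90.5 CPM in ETV6_R399C, 85 to 85.2 CPM in ETV6_WT and 79.5 to 86.7 CPM in tagBFP libraries. The log2 differences there were 0.07 ± 0.04 (SE, edgeR adjusted p = 0.218) for ETV6_R399C over tagBFP, 0.04 ± 0.04 (0.442) for ETV6_WT over tagBFP and 0.02 ± 0.04 (0.74) for ETV6_R399C over ETV6_WT. The first reached an adjusted p of 0.0453 without tagBFP replicate 3.

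CD151 (chromosome 11, 832843 to 839831, forward strand), a partner of laminin-binding integrins, was not called in any comparison. It was at 37.4, 34.9 and 38.6 CPM in ETV6_R399C, 37.3, 37.6 and 38.7 CPM in ETV6_WT, and 40.2, 37.4 and 38.3 CPM in tagBFP libraries. It was at 22.4, 23.3 and 25.6 CPM in sgERG and 23.3, 23.6 and 23.9 CPM in sgCtrl libraries, and the groups overlapped in every comparison. The log2 differences were -0.06, -0.03, -0.03 and 0.01, each with an SE of 0.05 or 0.06 (edgeR adjusted p = 0.32, 0.654, 0.683 and 0.943), for ETV6_R399C over tagBFP, ETV6_WT over tagBFP, ETV6_R399C over ETV6_WT and sgERG over sgCtrl. CD151 overlaps POLR2L on the other strand.

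Counted over the 5 tested members, 2 rose and 1 fell with ETV6_R399C over tagBFP, where 40.9% of 14242 genes were called (18.8% higher and 22.1% lower), and 2 rose and 1 fell with ETV6_WT over tagBFP, where 36.5% were called (17.6% higher and 18.9% lower). For ETV6_R399C over ETV6_WT, 1 fell (21.4% of genes called, 9.29% higher and 12.1% lower), and for sgERG over sgCtrl, 1 rose and 1 fell (14.6% of 13464 genes called, 6.89% higher and 7.74% lower). The groups did not overlap for 2, 3, 3 and 2 of the 5 in these comparisons, beside 50.8%, 48.2%, 38.4% and 34.6% of all genes. The median log2 difference of the 5 was 0.07, 0.04, -0.11 and 0.01, beside 0.00, 0.00, -0.02 and 0.00 over all genes. Nothing particular to the 5 is read from these counts.

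**Figure D2:**
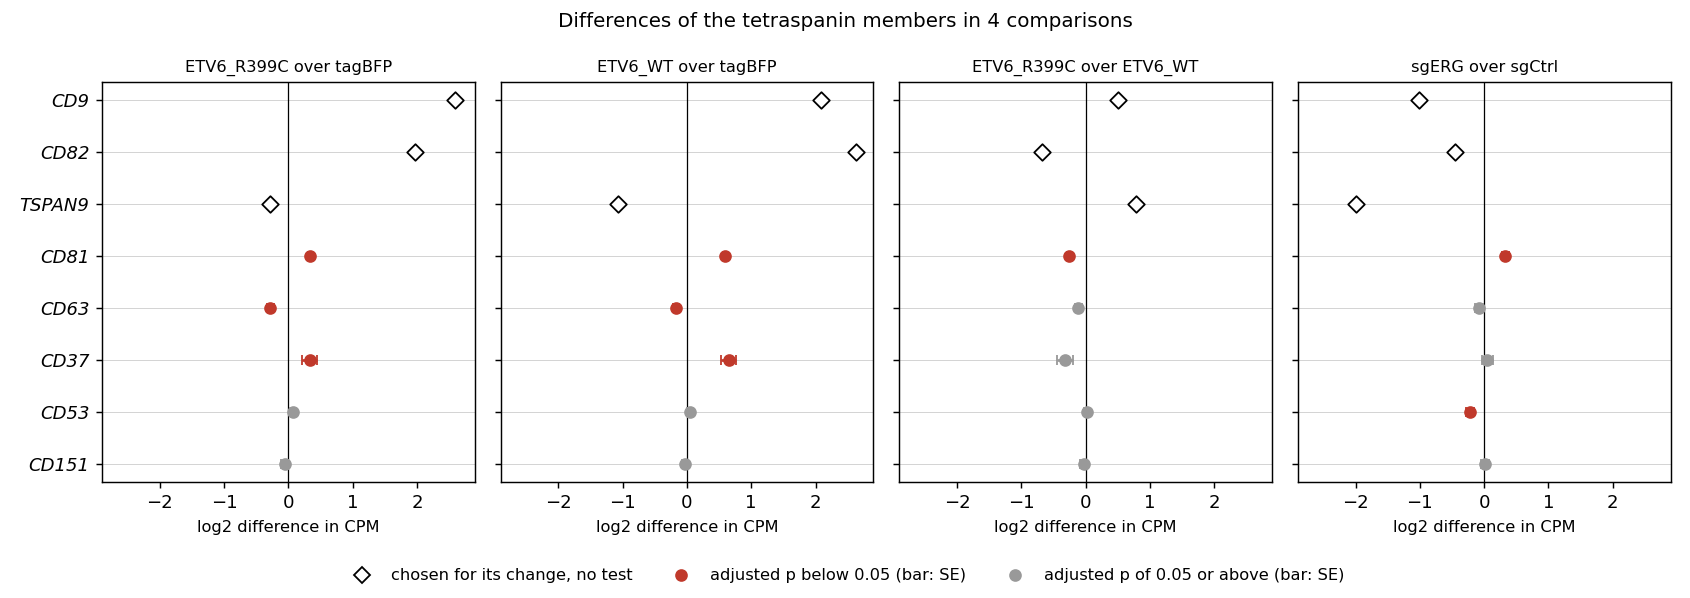
Log2 difference in CPM of the 8 members in the 4 comparisons, each the first named group over the second. Open diamonds are the 3 genes chosen for their change and circles the 5 tested genes with their SE, red where the adjusted p is below 0.05; CD81 is red in all 4 panels, and CD151 in none.

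On the TPM scale, which allows levels of different genes to be compared, CD81 was the most abundant member in every group. In ETV6_R399C libraries the mean levels ran from CD81 at 257 TPM through CD63 at 124, CD82 at 122, CD53 at 94.4, CD9 at 58.3, CD151 at 45.8 and TSPAN9 at 15.4 to CD37 at 9.78 TPM, and CD63 and CD82 overlapped. In ETV6_WT libraries the order was CD81 at 294 TPM, CD82 at 187, CD63 at 128, CD53 at 88.5, CD151 at 42.8, CD9 at 37.6, CD37 at 12 and TSPAN9 at 8.25 TPM, with no overlap between neighbours. In tagBFP libraries it was CD81 at 184 TPM, CD63 at 141, CD53 at 83.7, CD151 at 42.1, CD82 at 28.7, TSPAN9 at 16.6, CD9 at 8.82 and CD37 at 7.6 TPM, and the last 2 overlapped. CD82 was thus 3rd, 2nd and 5th, and TSPAN9 7th, 8th and 6th, in these groups.

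In the ERG experiment the order with sgERG was CD81 at 339 TPM, CD63 at 121, CD9 at 42, CD37 at 41.3, CD53 at 40.5, CD151 at 25.5, CD82 at 16.5 and TSPAN9 at 10.3 TPM, where CD9 and CD37, and CD37 and CD53, overlapped. With sgCtrl it was CD81 at 267 TPM, CD63 at 128, CD9 at 84.6, CD53 at 48, TSPAN9 at 43.2, CD37 at 39.6, CD151 at 25.1 and CD82 at 21.4 TPM, where TSPAN9 and CD37 overlapped. TSPAN9 was thus the least abundant member with sgERG and the fifth with sgCtrl. The control groups of the 2 experiments differ in vector, sorting and time, and their levels are given side by side only.

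The whole family of 33 genes summed to 1126 ± 18.9 TPM in ETV6_R399C, 1213 ± 16.2 TPM in ETV6_WT and 880.2 ± 11.2 TPM in tagBFP libraries (SD, n = 3 each). CD82 made up 10.8 ± 0.854% of that sum in ETV6_R399C, 15.4 ± 1.27% in ETV6_WT and 3.27 ± 0.104% in tagBFP libraries. The share of CD9 was 5.18 ± 0.175%, 3.1 ± 0.0935% and 1 ± 0.15% in the same groups. In the second experiment the sums were 1029 ± 32.6 TPM with sgERG and 1048 ± 14.8 TPM with sgCtrl, and their ranges overlapped. Within it, CD81 held 32.9 ± 0.0822% with sgERG and 25.5 ± 0.077% with sgCtrl, CD9 held 4.08 ± 0.33% and 8.07 ± 0.239%, and TSPAN9 held 1 ± 0.0048% and 4.12 ± 0.182%. These shares rest in part on genes chosen for their change and were not tested.

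**Figure D3:**
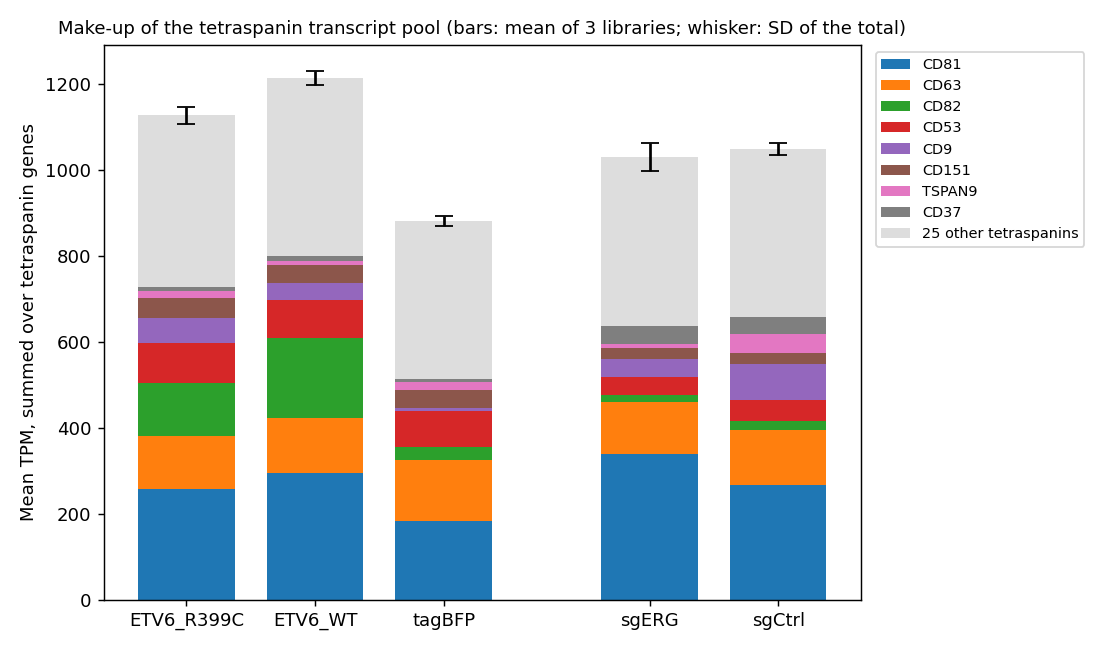
Summed level of the tetraspanin family by group (TPM, mean of 3 libraries, whisker the SD of the sum), split into the 8 members and the 25 other genes. The CD82 segment is 122 TPM in ETV6_R399C, 187 TPM in ETV6_WT and 28.7 TPM in tagBFP libraries; the TSPAN9 segment is 10.3 TPM with sgERG and 43.2 TPM with sgCtrl.

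Salmon divides reads among transcripts of a gene, and the share of a gene's TPM held by its most abundant transcript over all libraries was followed for each member. CD9-201 held 57.7 ± 2.78% in ETV6_R399C, 67.1 ± 5.16% in ETV6_WT and 62.7 ± 1.06% in tagBFP libraries, and 75.9 ± 0.102% in sgERG and 79.5 ± 2.13% in sgCtrl libraries (SD, n = 3). CD82-201 held 33.1 ± 4.33%, 32.3 ± 3.49% and 33.4 ± 2.61% in the first 3 groups, and TSPAN9-201 held 66 ± 10.4% with sgERG and 60.9 ± 8.7% with sgCtrl. For the 5 tested members, the lowest two-sided exact permutation p of 20 comparisons was 0.1, the smallest that 3 against 3 libraries can give. It was reached once, by CD63-209 for ETV6_WT over tagBFP (42 ± 1.09% and 38.5 ± 1.95%).

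Of the 25 other tetraspanin genes, 13 averaged at least 1 TPM over all libraries, and 13 passed the count filter in the first experiment and 14 in the second. With ETV6_R399C over tagBFP, 1 rose and 1 fell, beside 18.8% and 22.1% of all genes. TSPAN14, one of the TspanC8 tetraspanins that carry the protease ADAM10 to the cell surface, was at 222, 219.6 and 230.0 CPM in ETV6_R399C and 181, 170.3 and 165 CPM in tagBFP libraries (log2 difference 0.38 ± 0.03 SE, edgeR adjusted p = 7.4e-06). TSPAN3 fell to 104.8 ± 2.83 CPM in ETV6_R399C, against 119.9 ± 5.12 CPM in tagBFP libraries (log2 -0.19, edgeR adjusted p = 0.00117). With ETV6_WT over tagBFP, 5 rose and 1 fell, beside 17.6% and 18.9% of all genes. TSPAN14 was at 250.0, 245 and 248 CPM in ETV6_WT libraries (log2 difference 0.52 ± 0.03 SE, edgeR adjusted p = 4.2e-07), above every tagBFP library. TSPAN10, TSPAN13 and TSPAN4 rose by 0.36, 0.23 and 0.17 on the log2 scale. TSPAN18 rose by 0.88 at a low level, 1.81 ± 0.439 CPM in ETV6_WT and 0.967 ± 0.319 CPM in tagBFP libraries (edgeR adjusted p = 0.0258), and TSPAN17 fell (log2 difference -0.19, edgeR adjusted p = 0.0383) with overlapping libraries. The 6 calls were 5 by DESeq2, which did not call TSPAN4. They were 3 without ETV6_WT replicate 1 and 3 without tagBFP replicate 2. Calls over all genes were also fewer with 1 library left out, at 4322 to 4813 against 5202 with all libraries.

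With ETV6_R399C over ETV6_WT, 5 of the 13 fell and 0 rose, beside 12.1% and 9.29% of all genes. TSPAN3, TSPAN4, TSPAN13 and TSPAN14 had log2 differences of -0.17, -0.20, -0.22 and -0.14, and TSPAN18 one of -0.92. The 5 calls were 3 by DESeq2 and 1 with a transcript length offset, 2 and 1 without ETV6_R399C replicate 1 and 2, and 0 and 3 without ETV6_WT replicate 1 and 2. Calls over all genes also varied, from 2008 to 3110 with 1 library left out, against 3044 with all libraries. They were also fewer with the offset. With sgERG over sgCtrl, 0 of 14 passed edgeR's test or DESeq2's, beside 14.6% of all genes called by edgeR. Of the 14, 2 had an unadjusted p below 0.05 with either tool, TSPAN13 and TSPAN17. The TspanC8 genes TSPAN5, TSPAN10, TSPAN14, TSPAN15, TSPAN17 and TSPAN33 were all tested and are part of the counts above. Of them, 1 rose and 0 fell with ETV6_R399C over tagBFP, and 2 rose and 1 fell with ETV6_WT over tagBFP. With ETV6_R399C over ETV6_WT 0 rose and 1 fell, and 0 were called with sgERG. Over all genes, 40.9%, 36.5%, 21.4% and 14.6% were called in these comparisons. Median log2 differences of the other tetraspanins tested were -0.03, 0.13, -0.11 and -0.03 in the 4 comparisons, beside 0.00, 0.00, -0.02 and 0.00 over all genes.

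**Figure D4:**
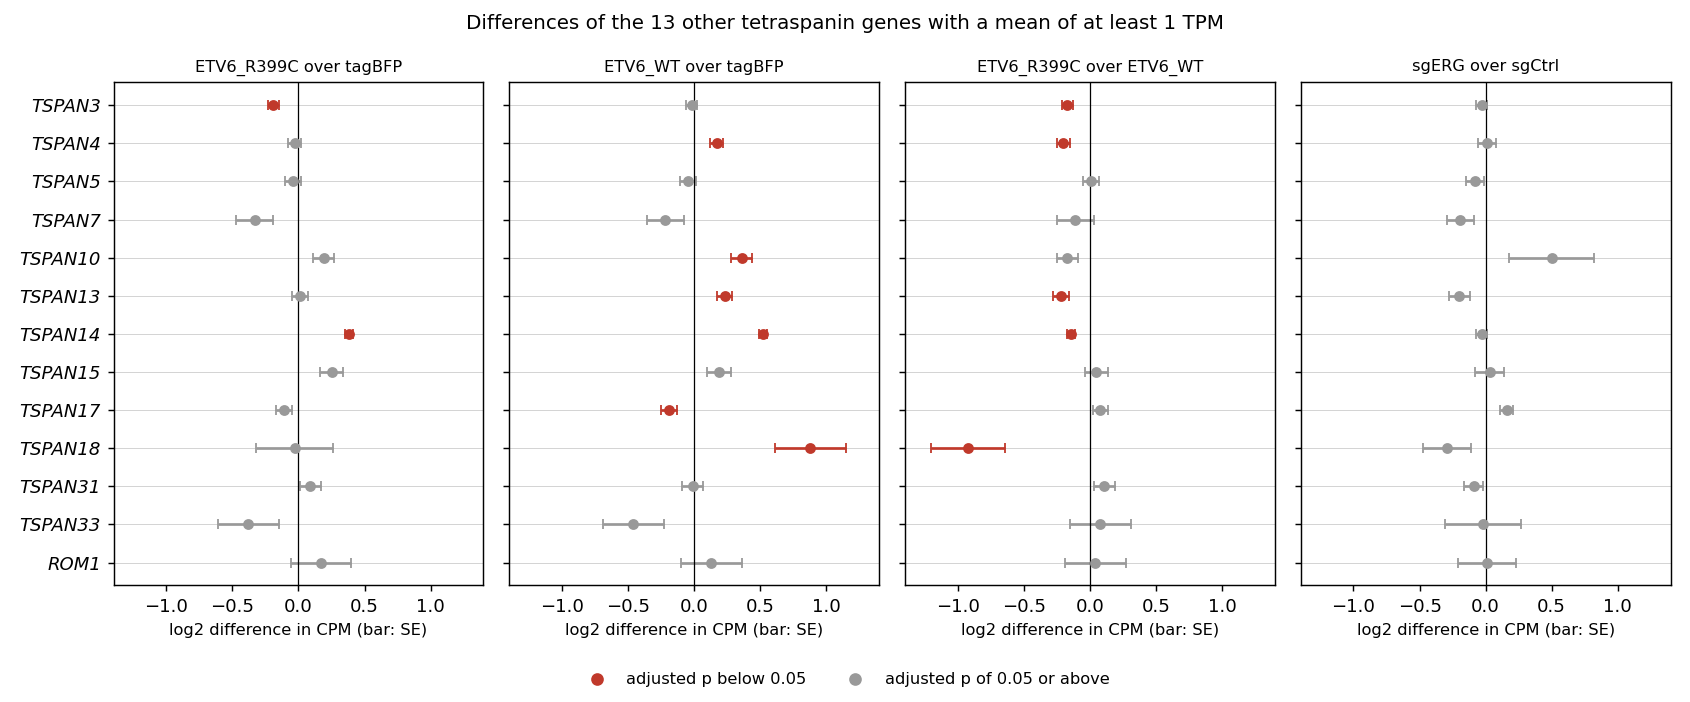
Log2 difference in CPM (bar: SE) of the 13 other tetraspanin genes that averaged at least 1 TPM, in the 4 comparisons. Red points have an adjusted p below 0.05; TSPAN14 is 0.38 and 0.52 above tagBFP with ETV6_R399C and ETV6_WT, and no gene is red for sgERG over sgCtrl.

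Of 19 genes whose proteins partner with tetraspanins, 14 were tested, and CR2, PTGFRN, CD44, PI4K2A and DPP4 had too few reads in the transcripts matched to genes. Whether reads of these genes lay in transcripts left out for want of a match was not tested. With ETV6_R399C over tagBFP, 4 partners rose and 3 fell, where 40.9% of all genes were called. Without tagBFP replicate 1, 4 partners were called in all. Calls over all genes ran from 4865 to 5594 with 1 library left out, against 5826 with all libraries. IFITM1, an interferon-induced membrane protein that associates with CD81, was at 11.3 ± 0.388 CPM in ETV6_R399C and 22.4 ± 0.215 CPM in tagBFP libraries (SD, n = 3, log2 difference -0.99 ± 0.05 SE, edgeR adjusted p = 1.2e-07). The integrin chains ITGA4 and ITGA5 rose by 0.43 and 0.44, ADAM10 by 0.24 and CD46 by 0.09 on the log2 scale, while IGSF8, a partner of CD9 and CD81, and ITGB1 had log2 differences of -0.20 and -0.11.

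With ETV6_WT over tagBFP, 4 partners rose and 3 fell, where 36.5% of all genes were called. IFITM1 was at 11.3 ± 0.339 CPM in ETV6_WT libraries (log2 difference -0.98, edgeR adjusted p = 8.5e-08). ITGA4, ITGA5 and CD47 rose by 0.62, 0.25 and 0.17, and ITGB1 and HBEGF had log2 differences of -0.13 and -0.47. ITGA6, the laminin-binding integrin chain with which CD151 associates, was at 14.1 ± 0.932 CPM in ETV6_R399C, 26.2 ± 0.111 CPM in ETV6_WT and 15.2 ± 1.07 CPM in tagBFP libraries. It rose with ETV6_WT over tagBFP (log2 difference 0.78, edgeR adjusted p = 2.4e-06) and fell with ETV6_R399C over ETV6_WT (-0.89, edgeR adjusted p = 3.4e-06), and was -0.11 with ETV6_R399C over tagBFP (edgeR adjusted p = 0.217). With ETV6_R399C over ETV6_WT, 2 partners rose, HBEGF by 0.60 and ITGA5 by 0.19, and 2 fell, ITGA6 and ITGA4, the second with a log2 difference of -0.19, where 21.4% of all genes were called.

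With sgERG over sgCtrl, 3 partners rose and 3 fell, where 14.6% of all genes were called. Partners called were 3 in all without sgCtrl replicate 3, and 5 without sgERG replicate 3. Calls over all genes ran from 1160 to 2302 with 1 library left out, against 1969 with all libraries. HBEGF, the growth factor whose membrane form associates with CD9, was at 20.2 ± 1.62 CPM in sgERG and 10.6 ± 1.07 CPM in sgCtrl libraries (log2 difference 0.94, edgeR adjusted p = 6.6e-05). ITGA4 was at 422 ± 21 CPM in sgERG and 266 ± 9.6 CPM in sgCtrl libraries (0.67, edgeR adjusted p = 6.2e-06), and IFITM1 rose by 0.37 (edgeR adjusted p = 0.00948). ITGA5, CD46 and ITGB1 had log2 differences of -0.26, -0.26 and -0.20 (edgeR adjusted p = 0.00802, 0.0461 and 0.0209). Among sgERG libraries, replicate 3 was the lowest for CD46 and ITGB1, at 73.4 and 81.2 CPM. For ITGA5 it was the highest, at 42.2 CPM. Median log2 differences of the tested partners were 0.08, 0.04, 0.00 and -0.10 in the 4 comparisons.

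The protein-coding genes most like each of the 3 chosen members across the 9 libraries of the first experiment were found by Pearson's r of log2(CPM + 0.5) over 10110 genes, as a description. CD9 was followed by TMEM131L (r = 0.997), BTG2 (0.996) and APBB1IP (0.995). BTG2 averaged 43 CPM in ETV6_R399C, 35.6 CPM in ETV6_WT and 14 CPM in tagBFP libraries. CD82 was followed by ATP9A, STK38 and FOXL1 (r = 0.998 each), and FOXL1 averaged 27.9, 34.9 and 12.7 CPM in the same groups. TSPAN9 was followed by SLC43A1 (r = 0.994), ANGPTL2 (0.994) and RAP1GAP (0.993), and RAP1GAP averaged 7.94, 2.62 and 11.5 CPM. The 9 points form 3 groups of libraries, so r mostly restates the order of the 3 group means.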

How the data were processed

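Messenger RNA of Reh cells was measured in 15 libraries made with a directional kit after column isolation with DNase, per the labels' protocols. Each deposited table gives, per the file headers, estimated counts of reads, TPM, length and effective length for 167268 transcripts from Salmon (0.11.3, build hg38, per the submitters' processing notes). The estimated counts were deposited without scaling across libraries, and the TPM values were deposited as Salmon scales them within each library, per the file headers. For strand setting, bias options and read filters, nothing is stated in the sources used here.

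Transcripts were matched by identifier to GENCODE 29 (90.3% of them; the rest held 6.67% to 7.56% of reads and were left out), summed to 33367 genes and rounded. edgeR 4.0.16 (R 4.3.3) fitted TMM-scaled counts with its default low-count filter and quasi-likelihood test, in 1 fit of 9 libraries and 1 of 6, with Benjamini-Hochberg adjustment over all genes at 0.05. An SE is the log2 difference divided by the square root of F. The biological coefficient of variation was 4.95% and 6.24%. The fit was also run on simulated counts with the same spread for every gene and few changed genes. That setting is simpler than these libraries, so nothing about the p-values here is read from it. Alternatives were DESeq2 1.42.0, its size factors in edgeR, no filter, an offset for mean transcript length, the 2 groups alone, a replicate block and leaving out each library; the counts of partners and the transcript shares were added after seeing the data.

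The members and lists were chosen with earlier results of these data known. Named are the 8 members, other tetraspanins with at least 1 TPM or a call, the partner list, the 3 genes most like each chosen member among those of at least 5 CPM, ETV6 and ERG. Not every gene under this rule is printed, and 1 gene of the partner and B-lineage lists is not reported here. Replicates of a group differed by more than sampling noise (chi-square per degree of freedom 2.89 to 14.7) and were counted singly.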

Additional observations from a re-analysis of the deposited data

How the results depend on the processing

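The offset for transcript length moved the most. Genes called were 3427, 2913 and 1236 for ETV6_R399C over tagBFP, ETV6_WT over tagBFP and ETV6_R399C over ETV6_WT, against 5826, 5202 and 3044. The cause was not tested. With it TSPAN9 was -0.18, 0.84 and -2.09 (log2 difference) for ETV6_R399C over tagBFP, ETV6_R399C over ETV6_WT and sgERG over sgCtrl, and CD9 0.56 for ETV6_R399C over ETV6_WT. CD37 over tagBFP with ETV6_R399C was 0.29 (0.33 with the 2 groups alone), CD63 with ETV6_WT -0.15 and CD53 with sgERG -0.27, none of them called. CD151, never called, turned to 0.05, 0.02, 0.03 and -0.00. Other tetraspanins called for ETV6_R399C over ETV6_WT were 3 by DESeq2 and 1 with the offset, and partners called for ETV6_R399C over tagBFP were 4 with the offset.

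The replicate block moved CD37 for ETV6_R399C over ETV6_WT past the threshold (-0.32, adjusted p = 0.0407) and CD53 for sgERG over sgCtrl out of it (-0.22, adjusted p = 0.0633), and changed no other member's call. Genes called with the block were 5656, 5086, 2973 and 1536. Deviations of same-numbered libraries from their group means correlated at -0.06 to 0.07, so the shared numbers do not pair the libraries.

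Leaving out 1 library at a time gave 4865 to 5594 genes called for ETV6_R399C over tagBFP, 4322 to 4813 for ETV6_WT over tagBFP, 2008 to 3110 for ETV6_R399C over ETV6_WT (2008 without ETV6_R399C replicate 1 and 2009 without ETV6_WT replicate 2) and 1160 to 2302 for sgERG over sgCtrl (1160 and 1162 without sgCtrl replicates 1 and 3). Other tetraspanins called were 2 to 3, 3 to 6, 0 to 4 and 0 to 0, and partners 4 to 7, 6 to 8, 4 to 5 and 3 to 6. In the order ETV6_R399C over tagBFP, ETV6_WT over tagBFP, ETV6_R399C over ETV6_WT and sgERG over sgCtrl, log2 differences ran as follows. CD9 was 2.48 to 2.68, 1.95 to 2.15, 0.49 to 0.57 and -1.06 to -0.98. CD82 was 1.93 to 2.03, 2.57 to 2.67, -0.68 to -0.64 and -0.57 to -0.38. TSPAN9 was -0.3 to -0.26, -1.1 to -1.05, 0.76 to 0.81 and -2.04 to -1.94. CD81 was 0.31 to 0.36, 0.55 to 0.6, -0.28 to -0.24 and 0.27 to 0.36. CD63 was -0.33 to -0.22, -0.24 to -0.13, -0.13 to -0.06 and -0.15 to -0.02. CD37 was 0.23 to 0.46, 0.53 to 0.76, -0.37 to -0.21 and -0.05 to 0.14. CD53 was 0.03 to 0.1, -0.01 to 0.06, -0.01 to 0.06 and -0.26 to -0.18. CD151 was -0.1 to -0.03, -0.08 to -0.02, -0.07 to 0.01 and -0.05 to 0.05. The signs of CD53, CD151 and CD37 turned only where no call stood. Of the members' 184 values under the alternatives that left out no library, 170 kept their direction and their side of the threshold, or moved by less than the spread between replicates. CD81 kept its direction under every alternative run. So did CD9, CD82 and TSPAN9, but these were chosen for large changes in these same libraries. Their values, also among the 184, are a description only.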

Other observations

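The gene sum of CD63 was made up of different annotated transcripts in the 2 experiments. CD63-201 held 2.83 ± 0.317 TPM in ETV6_R399C, 2.68 ± 1.27 TPM in ETV6_WT and 2.94 ± 2.33 TPM in tagBFP libraries (SD, n = 3 each), and 70.7 ± 5.22 TPM in sgERG and 73 ± 4.12 TPM in sgCtrl libraries. CD63-209, annotated as a target of nonsense-mediated decay, held 50.2 ± 0.838 TPM in ETV6_R399C, 53.8 ± 1.85 TPM in ETV6_WT and 54.3 ± 1.42 TPM in tagBFP libraries, and 5.6 ± 1.51 TPM in sgERG and 5.73 ± 0.181 TPM in sgCtrl libraries. CD63-202 held 41.2 to 55.2 TPM in the 9 libraries of the first experiment and at most 1.18 TPM in the 6 of the second. The gene's TPM was 124, 128 and 141 in ETV6_R399C, ETV6_WT and tagBFP libraries, and 121 and 128 in sgERG and sgCtrl libraries. The experiments were not compared by a test.

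CD81-201 likewise held 49 ± 0.469%, 50.1 ± 4.43% and 51.5 ± 3.81% of its gene's TPM in ETV6_R399C, ETV6_WT and tagBFP libraries, and 68.8 ± 1.99% and 69.3 ± 0.279% in sgERG and sgCtrl libraries. In the same order, CD82-201 held 33.1%, 32.3% and 33.4%, and 49.8 ± 7.94% and 52.7 ± 4.46%. CD37-201 held 70.7%, 69.3% and 71.6%, and 48.5 ± 3.59% and 40.2 ± 7.68%. Mean shares of CD53-201 lay between 75.8% and 79.1% in all groups, and those of TSPAN9-201 between 58.2% and 66.8%. TSPAN13 averaged 116 ± 9.79, 135 ± 1.59 and 115 ± 6.8 CPM in the first 3 groups and 23.3 ± 1.87 and 26.9 ± 2.11 CPM in the last 2.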
